A study of Homo sapiens with 20 samples.

Results

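Collagens are the main structural proteins of the extracellular matrix, and each is built from 3 alpha chains wound into a triple helix. The chain genes were taken as every row of the count table whose symbol is COL, a number, A and a number, which selected 44 of 43366 genes by name alone. Their mRNA was measured by RNA-seq in U2OS, a human osteosarcoma cell line. The libraries came from 5 wild-type (WT) clones and 5 ZBTB48 knockout (KO) clones, previously made and each sampled once untreated and once given 250 U/ml interferon γ (IFNγ) for 24 h. This made 20 libraries in 4 groups of 5, namely WT untreated, KO untreated, WT IFNγ and KO IFNγ. ZBTB48 is a zinc finger protein that binds telomeric repeats and promoters, and the treatment was meant to induce CIITA, the activator of the MHC-II genes. Each library is 1 clone in 1 condition, so a difference between genotypes is also a difference between 2 sets of clones.

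The libraries held 46652288 to 72952859 counts, and 3 counts came to 0.0409 to 0.0608 CPM, the usual depth-scaled count, here after TMM scaling of the library totals. ZBTB48 lay between 8.05 and 11.7 CPM in the WT libraries. It lay between 1.27 and 16.0 CPM in the libraries labelled KO, where both libraries of replicate 3 stood above the WT libraries of the same treatment, so these libraries are named here by their label. CIITA stood at 38.6 to 111 CPM after IFNγ in WT clones and at 3.06 to 18.8 CPM in clones labelled KO. The 2 libraries that the labels give to KO clone 4 did not resemble each other, and neither did those of KO clone 5. The untreated library of clone 4 resembled the IFNγ library of clone 5, and the untreated library of clone 5 that of clone 4. Results that use clone pairs are therefore given for KO clones as labelled or with these IFNγ libraries exchanged, and in part also without both clones. Of the 9 osteoblast markers, RUNX2, SPARC and SPP1 were at 1 CPM or more in all 20 libraries and ALPL in 19, whereas SP7, IBSP and BGLAP did not exceed 0.114 CPM and DLX5 and MEPE stayed below 1 CPM. The summed leukocyte markers did not exceed 1.48 CPM in any library.

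Fibrillar collagens, such as type I of bone and skin, are secreted as procollagens, trimmed at both ends and cross-linked into fibrils. Type IV forms the network of basement membranes, type VI forms beaded filaments around cells, and the FACIT collagens decorate the surface of fibrils. Bone-forming cells are known for type I collagen, whose usual form combines the products of COL1A1 and COL1A2.

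A chain gene was counted as expressed when it reached 1 CPM in at least 5 of the 20 libraries. This held for 31 of the 44 chain genes (70.5%), against 15790 of all 43366 genes (36.4%). A further 10 were low, meaning that they passed the filter on low counts in at least 1 comparison, and COL6A5, COL9A1 and COL23A1 passed it in none. The expressed genes made up 9 of 11 fibrillar chains, 5 of 6 basement membrane chains, 3 of 5 beaded filament chains and 6 of 10 FACIT chains. They also held 2 of 3 short chain network genes, 2 of 4 transmembrane chains, both multiplexins, the anchoring fibril chain COL7A1 and COL26A1. The low genes were COL1A2, COL24A1, COL4A3, COL6A6, COL9A3, COL10A1, COL19A1, COL21A1, COL25A1 and COL28A1. All chain genes together took 0.988 ± 0.089% of the counts in untreated WT clones and 0.684 ± 0.209% in untreated clones labelled KO (SD, n = 5). After IFNγ they took 0.758 ± 0.085% and 0.524 ± 0.143% (SD, n = 5).

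**Figure D1:**
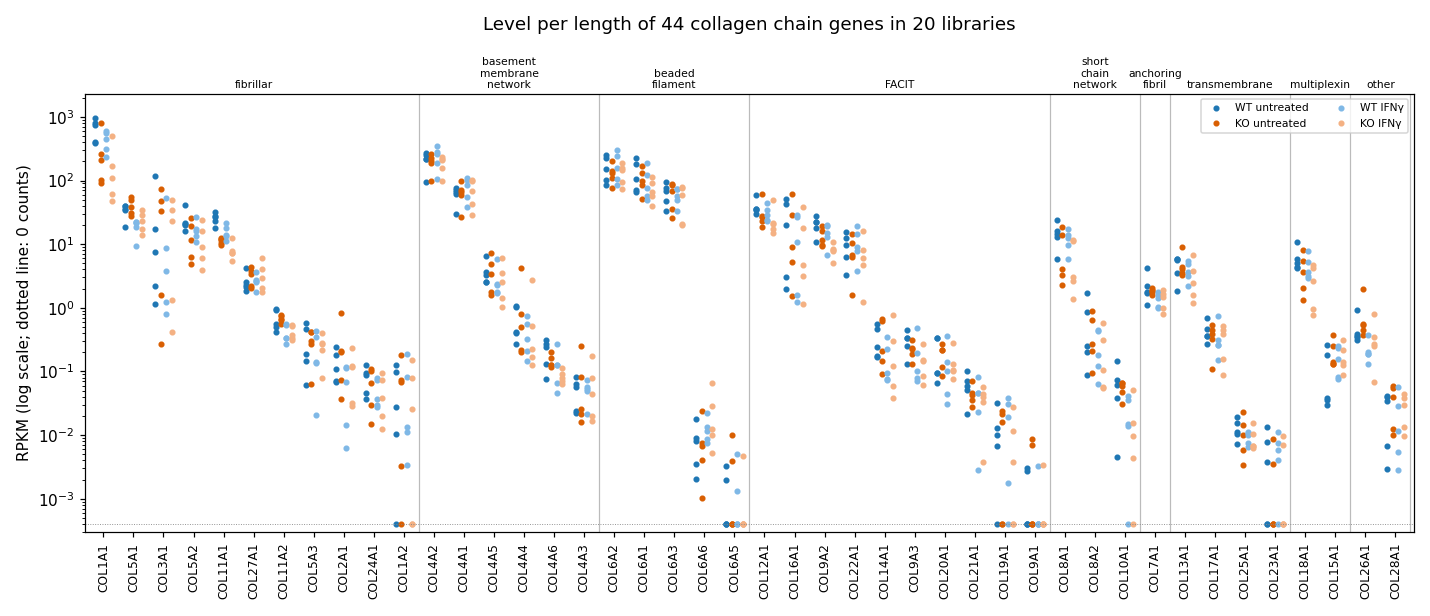
The vertical axis shows the level of each chain gene in RPKM on a log scale, with 1 point a library and libraries of 0 counts drawn on the dotted line, and the horizontal axis lists the 44 genes by class and mean level. COL1A1 has the highest mean over the 20 libraries, 389.6 RPKM, while COL1A2 stays at or below 0.188 RPKM.

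Compared per exon length, in RPKM (CPM per kilobase of exon) averaged over all 20 libraries, COL1A1 led with 389.6, followed by COL4A2 with 207 and COL6A2 with 152. COL6A1 followed with 102, COL4A1 with 67.7 and COL6A3 with 58.4 RPKM. COL1A1 led in 10 of the 20 libraries, among them all 5 of untreated WT clones, COL4A2 in 7 and COL6A2 in 3. After IFNγ the clones labelled KO had a mean of 184 RPKM for COL4A2 and of 179 RPKM for COL1A1. The ranges of neighbours in this order overlapped, for instance 47.2 to 946 RPKM for COL1A1 and 93.6 to 347 RPKM for COL4A2. A middle group from COL12A1 (31.5 RPKM) to COL8A1 (10.3 RPKM) held COL5A1 (29.1), COL3A1 (23.9), COL16A1 (17.9), COL5A2 (16.5), COL11A1 (15.05) and COL9A2 (14.1). COL22A1 (8.87), COL18A1 (4.34), COL13A1 (4.11), COL4A5 (3.31), COL27A1 (2.96) and COL7A1 (1.69 RPKM) came next. The remaining 11 expressed chains averaged between 0.141 RPKM (COL4A6) and 0.745 RPKM (COL4A4).

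COL1A1, the major chain of type I collagen, lies on the minus strand of chr17:50184101-50201631 (GRCh38). It stood at 2304, 4334, 2346, 4793 and 5598 CPM in untreated WT clones 1 to 5. In untreated clones labelled KO it stood at 596, 4822, 1240, 549 and 1524 CPM. Clone 2 alone among the KO labels reached the upper WT levels, and the others lay below every WT clone, so that the groups overlapped through 1 clone. After IFNγ the WT clones held 1839, 2670, 1365, 3317 and 3496 CPM and the clones labelled KO 358, 2986, 657, 1004 and 279 CPM. COL1A1 alone made up 5.71 to 53.2% of all collagen counts in a library.

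COL1A2 encodes the partner chain of COL1A1 in type I collagen and lies on the plus strand of chr7:94394895-94431227. It had 0, 3, 7, 40 and 29 counts in the untreated WT clones and 0, 45, 1, 20 and 19 counts in the untreated clones labelled KO. After IFNγ it had 3, 1, 5, 56 and 22 counts in WT clones and 8, 52, 0, 22 and 0 counts in clones labelled KO. The gene was thus at 0 counts in 4 libraries and at no more than 3 counts in 8, while COL1A1 had between 15462 and 321986 counts. Per length, with COL1A2 taken at no less than 3 counts, COL1A1 was at least 1369-fold higher in every library. The highest value of COL1A2 was 0.955 CPM, in WT clone 4 after IFNγ.

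COL3A1, the chain of type III collagen of elastic tissues (plus strand, chr2:188974373-189012746), differed between clones more than any other expressed chain. In untreated WT clones it stood at 6.23, 11.9, 41.1, 640.4 and 95.8 CPM and in untreated clones labelled KO at 1.48, 266, 8.80, 182 and 403 CPM. The SD of its log2 level over the 10 untreated clones was 2.92, beyond that of 99.9% of all expressed genes, whose median SD was 0.32. Both genotypes held clones near the bottom and near the top of a 432-fold range. After IFNγ the values were 4.403, 6.70, 20.8, 296 and 47.4 CPM in WT clones and 2.31, 189.8, 7.19, 267 and 126 CPM in clones labelled KO. The order of the WT clones was the same in both conditions.

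COL16A1, a FACIT chain, and COL8A2, a short chain network chain of the cornea and vessel wall, came next in spread, with SDs of 2.002 and 1.34. COL16A1 stood at 122, 18.7, 12.1, 307 and 257 CPM in untreated WT clones and at 9.15, 367, 31.7, 53.9 and 175 CPM in untreated clones labelled KO. COL8A2 stood at 1.15, 0.937, 0.405, 7.84 and 4.09 CPM and at 0.970, 4.16, 0.445, 1.25 and 3.02 CPM in the same libraries. The highest clones of both genes were WT clones 4 and 5 and KO clones 2 and 5. After IFNγ COL16A1 stood at 66.5, 9.79, 7.45, 174 and 163 CPM in WT clones and at 6.86, 232, 18.9, 107 and 28.2 CPM in clones labelled KO. COL8A2 then stood at 0.843, 0.560, 0.2998, 2.12 and 2.02 CPM and at 0.497, 2.71, 0.268, 1.48 and 0.253 CPM. For both genes the second highest KO library was now that labelled clone 4. Over the 10 untreated clones the levels of COL16A1 and COL8A2 correlated at r of 0.864, and over the 10 IFNγ libraries at 0.871, given as a description. COL3A1 and COL4A5, a chain of the kidney and lung basement membrane, correlated at 0.917 and 0.91.

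**Figure D2:**
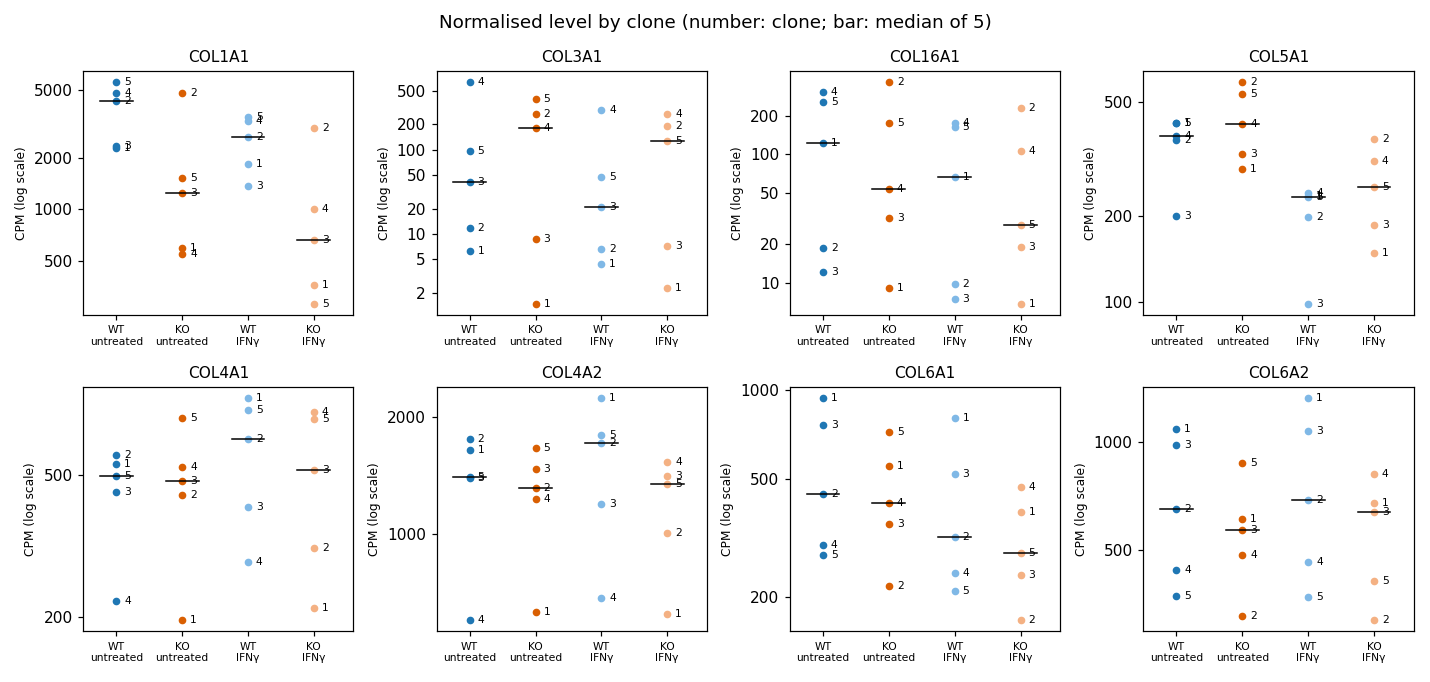
Each panel shows 1 chain gene, with CPM on a log scale against the 4 groups, 1 numbered point a clone and a bar at the median of 5. COL3A1 and COL16A1 span far more than COL4A1, COL4A2, COL6A1 and COL6A2, and the KO points numbered 4 and 5 change places between untreated and IFNγ in several panels.

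COL5A1 and COL5A2 encode chains of type V collagen, which starts and regulates fibril assembly. COL5A1 (plus strand, chr9:134641803-134844843) stood at 423, 369, 200.3, 380.2 and 423 CPM in untreated WT clones and at 235, 198, 98.9, 239.5 and 233 CPM after IFNγ. In clones labelled KO it stood at 293, 587, 328, 418 and 532 CPM untreated and at 149, 372, 185, 312 and 251.5 CPM after IFNγ. Every clone had a lower value after IFNγ, and WT clone 3 was the lowest of its genotype in both conditions. COL5A2 (minus strand, chr2:189031898-189441111) stood at 167, 152, 123, 312 and 157 CPM in untreated WT clones and at 131, 125, 84.2, 206 and 104 CPM after IFNγ. In clones labelled KO it stood at 47.6, 37.2, 88.7, 145 and 198 CPM untreated and at 46.0, 30.4, 68.3, 182 and 123 CPM after IFNγ. The clone labelled KO 2 had the highest COL5A1 of its group and the lowest COL5A2 in both conditions.

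COL4A1 and COL4A2 encode the common chains of type IV collagen and lie head to head on chromosome 13, COL4A1 on the minus strand of chr13:110148963-110307157 and COL4A2 on the plus strand of chr13:110307284-110513209. The 126 bases between their starts are shown because the levels of both genes followed each other from clone to clone. They are chr13:110307158-110307283 on the plus strand, read from RefSeq promoter windows of GRCh38.p14, and capitals mark the match to CCAAT, the box bound by NF-Y.
COL4A1-COL4A2 interval: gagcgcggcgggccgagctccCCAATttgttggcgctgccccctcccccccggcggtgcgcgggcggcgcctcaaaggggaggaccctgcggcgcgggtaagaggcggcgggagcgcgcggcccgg
G and C make up 80.2% of this interval. COL4A1 stood at 538, 569.8, 449.8, 222 and 497 CPM in untreated WT clones and at 196, 439, 483, 529 and 727 CPM in untreated clones labelled KO. COL4A2 stood at 1645, 1753, 1396, 603 and 1402 CPM and at 634, 1316, 1472, 1232 and 1666 CPM in the same libraries. WT clone 4 and KO clone 1 were the lowest of their groups for both genes. After IFNγ COL4A1 stood at 825, 631, 407, 285 and 765 CPM in WT clones and at 212, 313, 519, 754 and 719 CPM in clones labelled KO. COL4A2 then stood at 2239, 1713, 1194, 688 and 1798 CPM and at 625, 1006, 1409, 1531 and 1346 CPM. The same clones were again the lowest, and both treatments overlapped widely.

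The other type IV chains lie in head-to-head pairs as well, COL4A4 and COL4A3 on chromosome 2 with 135 bases and COL4A6 and COL4A5 on chromosome X with 379 bases between them. Their levels per length were far apart. COL4A5 lay 10.2 to 54.6 times above COL4A6 in RPKM, and COL4A4 (3.12 to 65.3 CPM in untreated clones) was expressed while COL4A3 was low.

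COL6A1, COL6A2 and COL6A3 encode the 3 classical chains of type VI collagen, COL6A1 and COL6A2 in tandem on chromosome 21 and COL6A3 on chromosome 2. COL6A1 (chr21:45981770-46005048) stood at 939, 444, 761, 299 and 277 CPM in untreated WT clones and at 801, 317, 519, 241 and 209 CPM after IFNγ. COL6A2 (chr21:46098112-46132848) stood at 1085, 650.5, 981, 439 and 374 CPM and at 1321, 687, 1073, 463 and 371 CPM in the same libraries. Every WT clone thus had less COL6A1 after IFNγ, while COL6A2 was higher in 4 of 5. In clones labelled KO COL6A1 stood at 551, 217, 353, 416 and 718 CPM untreated and at 388, 167, 237, 469 and 281 CPM after IFNγ. COL6A2 stood at 612, 329, 569.8, 484 and 872 CPM and at 676, 320.4, 638, 814 and 410.5 CPM. COL6A3 (minus strand, chr2:237324018-237414164) stood at 802, 1025, 723, 353 and 512 CPM in untreated WT clones and at 385, 269.6, 737, 931 and 905 CPM in untreated clones labelled KO. After IFNγ it stood at 785, 779, 535, 354 and 602 CPM and at 219.7, 211, 638, 825 and 832 CPM. Its groups overlapped in every comparison.

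The response of WT clones to IFNγ was compared first. A gene was called by edgeR's quasi-likelihood test when its adjusted p was below 0.01 and its level differed over 2-fold. By this rule 0 of 38 chain genes tested were called, against 3% of all genes tested. At an unadjusted p under 0.05 there were 5, against 24.9% of all genes tested, and DESeq2 called 0. The test without clone pairs left COL11A1 nearest to the cut-off, at a log2 fold change of -0.73 (standard error, SE, 0.19, edgeR adjusted p = 0.0291), ahead of COL5A1 with -0.85 (SE 0.26, edgeR adjusted p = 0.0625) and COL26A1 with -1.11 (SE 0.38, edgeR adjusted p = 0.0904). The median log2 fold change over the 38 genes was -0.46, and 30 of them (78.9%) lay below 0, against a median of -0.03 and 53.0% below 0 over all genes. The summed fibroblast markers lay at 272 to 517 CPM in untreated WT clones and 160 to 298 CPM after IFNγ, with 5 of 7 expressed and DCN at no more than 1.91 CPM. The summed osteoblast markers, mostly SPARC, lay at 1522 to 3410 CPM and 922 to 2093 CPM. Of the fibroblast markers only PDGFRB had a higher mean after IFNγ (56.9 and 59.1 CPM), and of the expressed osteoblast markers only ALPL (6.15 and 14.4 CPM). The summed chondrocyte markers lay at 240 to 520 CPM untreated and 301 to 564 CPM after IFNγ, and the epithelial ones at 5.18 to 49.5 CPM and 5.72 to 25.4 CPM. The part of these markers in the collagen values was not tested.

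With the clone as a block, 3 chain genes were called in WT clones, namely COL14A1, COL26A1 and COL8A2, all lower after IFNγ, against 7.24% of all genes tested. At an adjusted p under 0.05 with no fold cut-off, a criterion chosen after the data were seen, 21 of the 38 tested were lower, against 24.1% of all genes tested, and only COL15A1 was higher. The largest changes by edgeR's blocked test among the abundant chains were those of fibrillar chains and of COL16A1. COL5A1 fell by 0.87 on the log2 scale (SE 0.05, edgeR adjusted p = 1.82e-07) and COL16A1 by 0.81 (SE 0.06, edgeR adjusted p = 7.47e-07). COL11A1, a chain of the thin fibrils of cartilage, fell by 0.74 (SE 0.06, edgeR adjusted p = 2.005e-06) and COL3A1 by 0.94 (SE 0.07, edgeR adjusted p = 2.19e-06). COL1A1 fell by 0.62 (SE 0.06, edgeR adjusted p = 5.30e-06), COL5A2 by 0.49 and COL6A1 by 0.41. COL9A2, COL4A5, COL18A1 and COL12A1 fell by 0.49, 0.50, 0.42 and 0.36.

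The chains that did not pass the blocked test in WT clones included the partner of COL6A1 and both main type IV chains. COL6A2 had a log2 fold change of 0.10 (SE 0.05, edgeR adjusted p = 0.0963), COL4A1 of 0.31 (SE 0.12, edgeR adjusted p = 0.0696) and COL4A2 of 0.13 (SE 0.09, edgeR adjusted p = 0.287). COL6A3 had -0.14, COL22A1 0.17 and COL27A1 0.04. COL15A1, a multiplexin of basement membrane zones, had 0.85 (SE 0.32, edgeR adjusted p = 0.0469) at a low level, 0.231, 0.212, 0.182, 1.09 and 1.56 CPM untreated and 0.956, 0.458, 0.491, 1.53 and 1.43 CPM after IFNγ. It was higher in 4 of 5 WT clones. Clone by clone, 19 of the 31 expressed chains were lower after IFNγ in all 5 WT clones and 0 were higher in all 5, against 28.2% of all expressed genes that were lower in all 5. In bulk samples fewer cells of a type and less RNA per cell cannot be told apart.

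**Figure D3:**
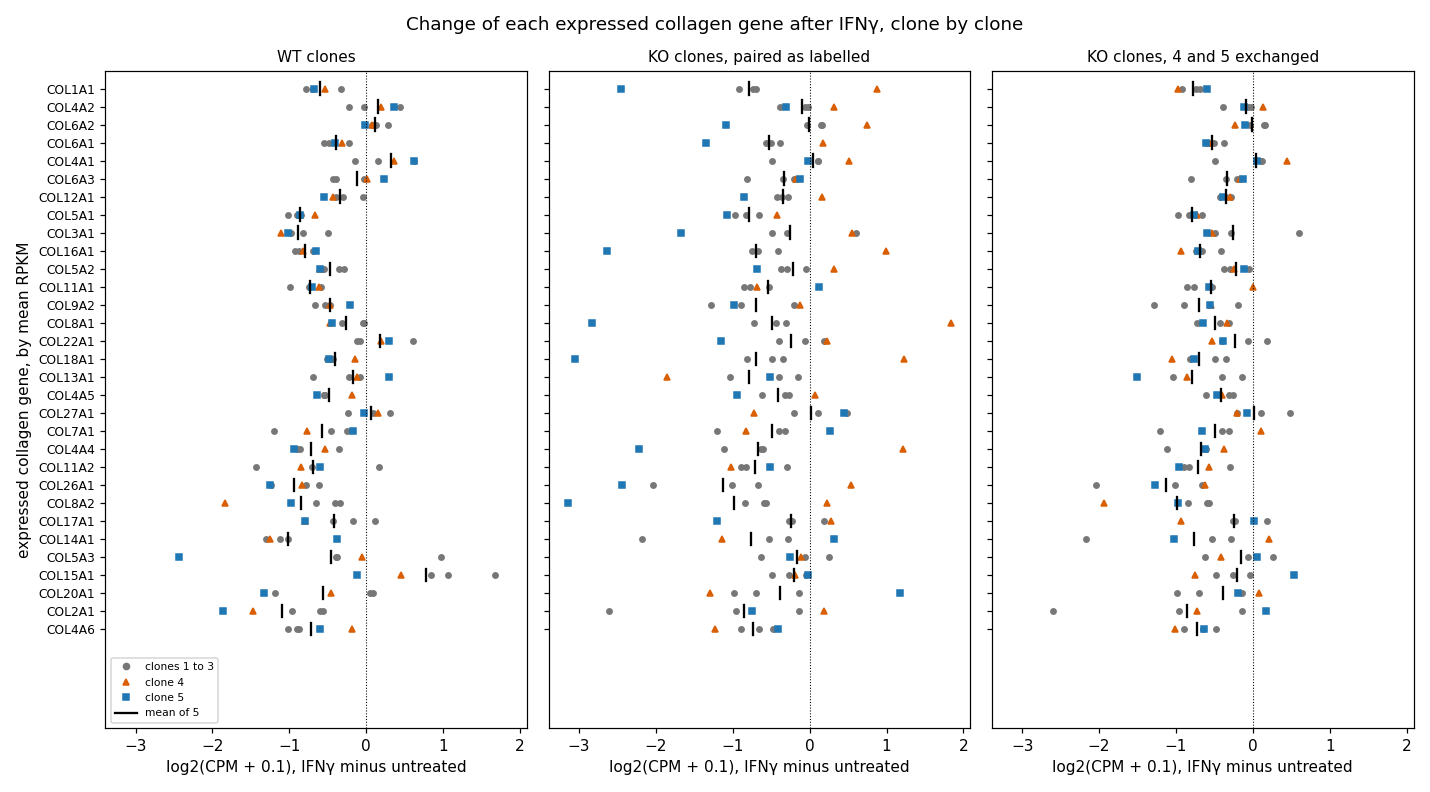
The horizontal axis is the difference in log2(CPM + 0.1) between the IFNγ and the untreated library of a clone, with the 31 expressed chains down the vertical axis, 1 point a clone and a bar at the mean of 5. In WT clones 19 chains lie wholly below 0. In KO clones as labelled, clones 4 and 5 scatter to both sides of the rest, and with their IFNγ libraries exchanged 17 chains lie wholly below 0.

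In the clones labelled KO 0 of 39 chain genes tested were called by edgeR's test without clone pairs, against 1.96% of all genes tested, DESeq2 called 0, and 6 chain genes reached an unadjusted p under 0.05, against 23.5%. The median log2 fold change was -0.43, against -0.03 over all genes, and 36 of the 39 lay below 0, against 53.1% of all genes. The summed fibroblast markers lay at 253 to 421 CPM untreated and 159 to 286 CPM after IFNγ, where only PDGFRB had a higher mean (63.6 and 74.3 CPM). The summed chondrocyte markers lay at 265 to 368 CPM and 290.5 to 347 CPM. The 3 smallest p values were those of COL11A2 with -0.70 (SE 0.22, edgeR adjusted p = 0.0766), COL4A6 with -0.81 (SE 0.27, edgeR adjusted p = 0.0927) and COL9A2 with -0.72 (SE 0.25, edgeR adjusted p = 0.106). Of the 39 chain genes, COL11A2 and COL4A6 did not overlap between treated and untreated libraries, against 9.46% of all genes tested (two-sided exact permutation p = 0.00794, the smallest that 5 against 5 libraries can give).

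With the clone as a block and the labels taken as given, 4 chain genes had an adjusted p under 0.05 and were lower in clones labelled KO, namely COL5A1, COL11A2, COL9A2 and COL11A1, against 9.95% of all genes tested. With the IFNγ libraries of clones 4 and 5 exchanged there were 18, against 18.8%, and COL6A6 alone was higher, while the stricter call was met by COL26A1 and COL8A2, both lower, against 6.23% of all genes tested. Without both clones 9 chain genes were lower at an adjusted p under 0.05, against 6.24%. In the exchanged pairing COL1A1 fell by 0.79 (SE 0.06, edgeR adjusted p = 2.54e-05), COL5A1 by 0.80 (SE 0.07, edgeR adjusted p = 3.59e-05) and COL16A1 by 0.70 (SE 0.07, edgeR adjusted p = 0.000121). COL6A1 fell by 0.53 (SE 0.06, edgeR adjusted p = 0.000176), while COL6A2 had -0.02 and COL4A1 0.04. COL3A1 had -0.33 (SE 0.14, edgeR adjusted p = 0.0948), with KO clone 1 higher after IFNγ and the other 4 lower. The exchange was chosen by the resemblance of libraries in these same data, so these p values are not independent of that choice. With the labels as given, edgeR's blocked adjusted p was 0.212 for COL1A1, 0.322 for COL16A1, 0.0844 for COL6A1 and 0.00336 for COL5A1. Chains lower in all 5 clones numbered 7 of 31 as labelled and 17 with the exchange, against 19.3% and 25.1% of all expressed genes. In 25 of 31 expressed chains the mean change was below 0 in both genotypes as labelled, against 45.9% of all expressed genes.

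The difference between the responses of WT clones and clones labelled KO was then tested over all 20 libraries. None of the 41 chain genes tested was called by edgeR's test, against 0% of all genes tested. The unadjusted p was under 0.05 for 0 of them, against 0.409%. DESeq2 called 0 as well. The edgeR fit here took no account of clone pairs, and so small a share over all genes means that it rarely gave a small p. Its 0 calls thus do not show equal responses. The smallest p values were those of COL15A1 with a log2 difference of 0.74 (SE 0.82), COL11A1 with -0.25 (SE 0.29) and COL6A6 with -0.88 (SE 1.02), each with an edgeR adjusted p of 1. With the clone as a block and the exchanged pairing, 5 chains had an unadjusted p under 0.05, against 2.77% of all genes tested. COL3A1 was one of them, with a difference of -0.59 (SE 0.17, edgeR adjusted p = 0.999).

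WT clones and clones labelled KO were compared without and with IFNγ. In untreated clones 0 of 39 chain genes tested were called by edgeR's test, against 0.0154% of all genes tested. The unadjusted p was under 0.05 for 2 of them, against 4.79%. With IFNγ 0 of 37 were called, against 0.0155%, and again 2 had an unadjusted p under 0.05, against 4.35%. DESeq2 without shrinkage called COL11A1 in untreated clones and no chain gene with IFNγ. The median log2 fold change of WT over KO was 0.15 untreated and 0.10 with IFNγ.

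COL11A1 (minus strand, chr1:102876473-103108522) stood nearest to a call. It had 217, 301, 251.4, 257 and 171 CPM in untreated WT clones and 92.6, 97.5, 115, 118 and 109 CPM in untreated clones labelled KO. The lowest WT clone lay above the highest clone labelled KO. The mean was 239 ± 48.7 CPM against 106 ± 10.97 CPM (SD, n = 5), with a log2 fold change of 1.18 (95% interval 0.86 to 1.49), more than 2-fold but with an edgeR adjusted p of 0.0207, above the cut-off. Its p ranked 4 among 19505 genes tested. It was the only 1 of 39 chain genes (2.56%) whose groups did not overlap, against 0.959% of all genes tested. Any gene without overlap has the two-sided exact permutation p of 0.00794, so this p adds nothing to the separation. The clone labelled KO 3, whose ZBTB48 mRNA lay above the WT level, had 115 CPM, within the range of the other clones labelled KO. The call was met with DESeq2 without shrinkage (adjusted p = 2.135e-09), with all genes kept whatever their counts (edgeR adjusted p = 0.00494) and without WT clone 5 (edgeR adjusted p = 0.00373). It was not met in the other 14 of 17 alternatives, among them the block on replicate numbers (edgeR adjusted p = 0.213). The log2 fold change ran from 0.88 to 1.27 over the 17.

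After IFNγ COL11A1 had 129, 200.2, 126, 168 and 104 CPM in WT clones and 51.2, 67.4, 67.3, 73.1 and 118 CPM in clones labelled KO. The library labelled KO 5 lay within the WT range, and the other 4 lay below every WT clone. The log2 fold change was 0.92 (95% interval 0.40 to 1.45, edgeR adjusted p = 0.967), and 0 of 37 chain genes had groups that did not overlap, against 0.825% of all genes tested. COL9A2, a FACIT chain of cartilage fibrils, had 0.62 (95% interval 0.03 to 1.22, edgeR adjusted p = 0.98) untreated and 0.87 (95% interval 0.25 to 1.49, edgeR adjusted p = 0.996) with IFNγ. COL1A1 had 1.16 (95% interval -0.05 to 2.38, edgeR adjusted p = 0.98) and 1.26 (95% interval -0.01 to 2.53, edgeR adjusted p = 0.996). The COL1A1 intervals include both 0 and more than 2-fold. COL4A1 and COL4A2 had intervals of -0.75 to 0.64 and -0.53 to 0.75 in untreated clones, which leave out a 2-fold difference. With IFNγ their intervals were -0.65 to 1.027 and -0.34 to 1.036, which include it.

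**Figure D4:**
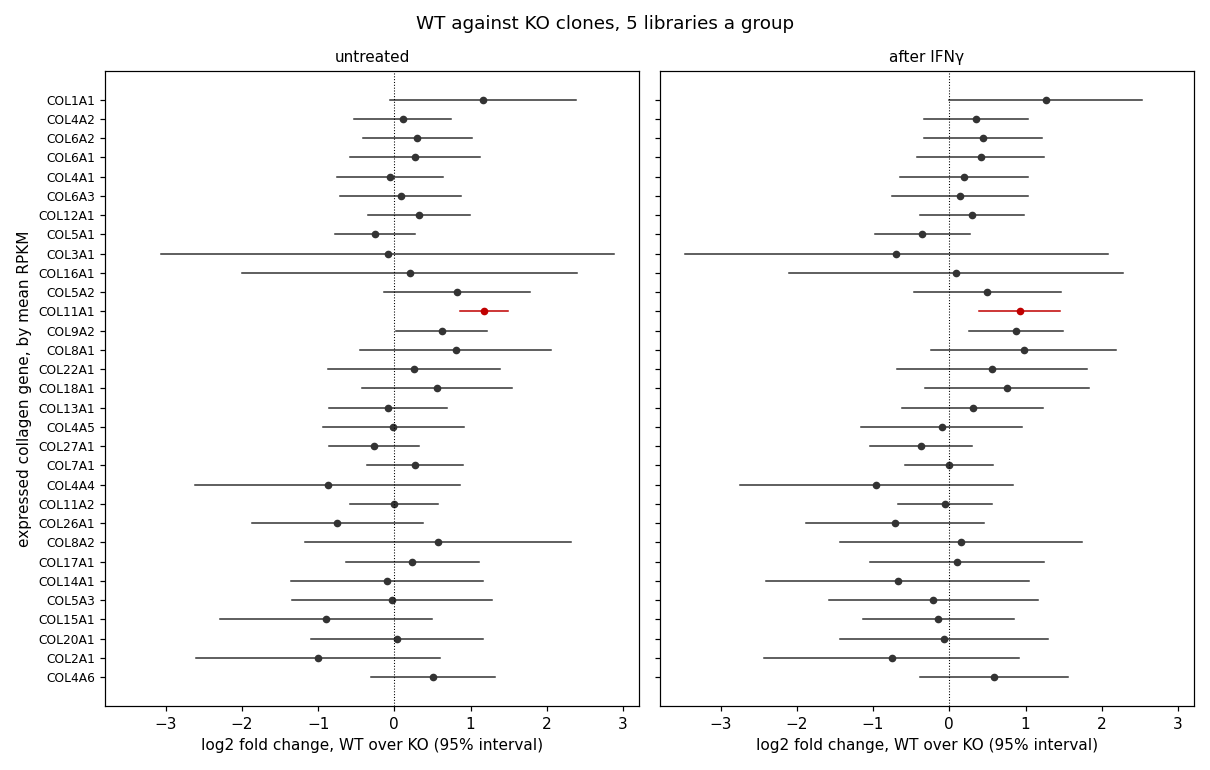
Points are log2 fold changes of WT over KO for the expressed chains, with 95% intervals from edgeR's fit of 5 against 5 libraries, untreated on the left and after IFNγ on the right. COL11A1, in red, lies at 1.18 and 0.92, and COL3A1 and COL16A1 have the widest intervals.

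The sequence before the start of COL11A1 is shown because this chain alone separated the untreated WT clones from those labelled KO. It comes from the RefSeq promoter window of GRCh38.p14, chr1:103108523-103108772 on the minus strand, with capitals at ATTGG, the reverse complement of CCAAT. The second stretch, chr1:103108491-103108512 on the same strand, lies just after the start, with capitals at TTAGGG, the telomeric repeat that ZBTB48 is known to bind.
COL11A1 upstream: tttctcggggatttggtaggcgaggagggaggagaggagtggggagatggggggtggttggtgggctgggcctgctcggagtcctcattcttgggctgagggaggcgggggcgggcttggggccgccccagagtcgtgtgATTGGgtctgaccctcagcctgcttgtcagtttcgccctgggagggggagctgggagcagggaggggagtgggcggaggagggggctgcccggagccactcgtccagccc
COL11A1 TTAGGG match: tgaagcctTTAGGGgcacacag
Of the 44 chain genes 32 had a window in the RefSeq table, some with several, which made 44 windows of 300 bases among 35116 of all genes. TTAGGG, searched on both strands, occurred in 5 of these 44 windows (11.4%) and in 9.05% of all windows. The 5 belonged to COL11A1, COL7A1, COL4A6, COL24A1 and COL6A6, of which COL7A1 and COL4A6 had log2 fold changes of WT over KO of 0.27 and 0.51 in untreated clones, with edgeR adjusted p values of 0.982 and 0.98. The low gene COL24A1 had 0.305 there, and COL6A6 was not tested in untreated clones. With IFNγ COL7A1, COL4A6, COL24A1 and COL6A6 had -0.008, 0.59, 0.018 and -0.955. CCAAT occurred in 31.8% of the chain windows and 34.6% of all windows, the Sp1 box GGGCGG in 54.5% and 45%, and TATAAA in 18.2% and 11.5%. A match is a description of the letters and not a binding site. The genes with no window were COL1A1, COL1A2, COL2A1, COL3A1, COL5A2, COL6A1, COL6A5, COL8A1, COL9A3, COL14A1, COL20A1 and COL22A1.

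Chains that assemble into one molecule were compared across clones, in 7 pairs with both genes expressed, over the 10 untreated and separately over the 10 IFNγ libraries. COL6A1 and COL6A2 correlated at Pearson's r of 0.971 (permutation p = 2e-05, adjusted over 7 pairs 0.00014) and Spearman's rho of 0.976 (permutation p = 5e-05) in untreated clones. After IFNγ r was 0.936 (permutation p = 7e-05, adjusted 0.000245) and rho 0.939 (permutation p = 0.00024). Without the 2 clones farthest from the median r remained 0.943 and 0.863. Among 21050 genes, COL6A2 ranked 1 by its r with COL6A1 in untreated and 2 in IFNγ libraries.

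COL4A1 and COL4A2 correlated at r of 0.957 (permutation p = 0.00123, adjusted 0.0043) and rho of 0.842 (permutation p = 0.00333) in untreated clones and at r of 0.940 (permutation p = 7e-05, adjusted 0.000245) and rho of 0.939 (permutation p = 0.00018) after IFNγ. COL4A2 ranked 1 and 3 among all genes by its r with COL4A1. Without the 2 farthest clones r was 0.627 (permutation p = 0.0864) in untreated and 0.857 (permutation p = 0.00447) in IFNγ libraries, so that the untreated relation rests on those clones. With the genotype means taken out, r stayed at 0.961 and 0.941 for this pair and at 0.972 and 0.931 for COL6A1 and COL6A2. The 5 other pairs had r from -0.004 to 0.632 in untreated and from 0.054 to 0.596 in IFNγ libraries, with no adjusted p under 0.05. With the genotype means taken out, their r ran from 0.153 to 0.626 and from -0.051 to 0.779, which was not tested. The highest was that of COL11A1 and COL11A2 in IFNγ libraries, where r had been 0.398. COL5A1 and COL5A2 had r of 0.003 and 0.082, which became 0.701 and 0.862 without the 2 clones farthest from the median of COL5A1. COL6A2 and COL6A3 had 0.632 and 0.392.

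The ratio of COL6A1 to COL6A2 in RPKM was lower after IFNγ in every WT clone. It was 0.894, 0.705, 0.802, 0.704 and 0.764 in untreated WT clones and 0.627, 0.477, 0.4996, 0.538 and 0.582 after IFNγ. In clones labelled KO it was 0.931, 0.683, 0.640, 0.888 and 0.851 untreated and 0.593, 0.538, 0.384, 0.596 and 0.708 after IFNγ. It was lower after IFNγ in all 5 clones of each genotype, in either pairing of KO clones 4 and 5, and the WT groups did not overlap. This ratio was looked at after its values were seen and was not tested. The ratio of COL4A1 to COL4A2 ran from 0.267 to 0.378 in untreated and from 0.269 to 0.462 in IFNγ libraries.

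**Figure D5:**
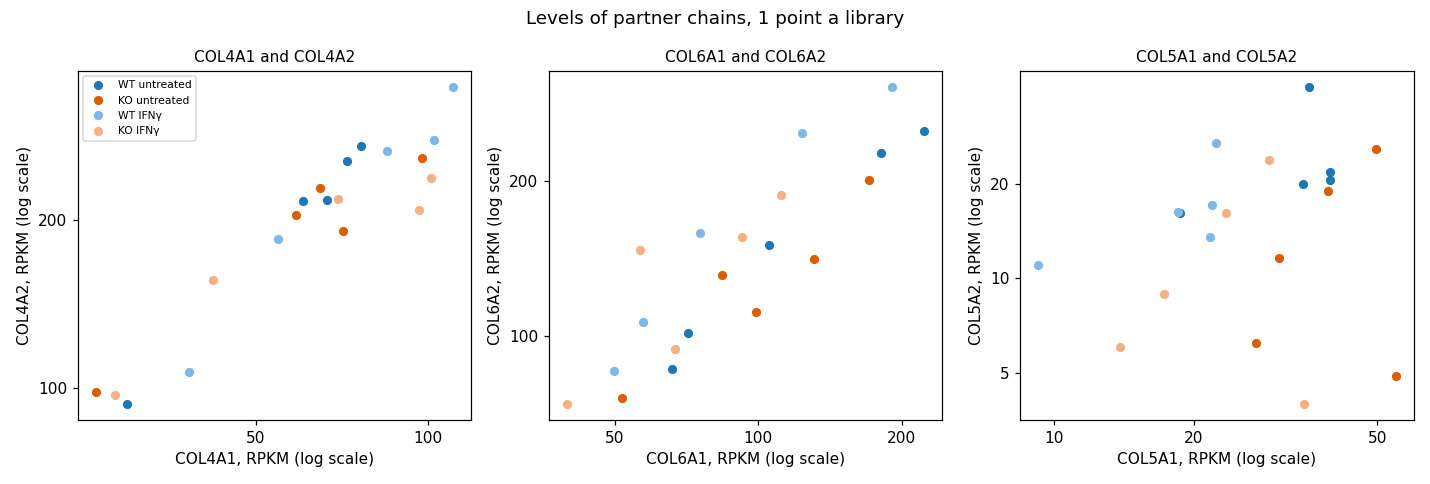
Each panel plots the RPKM of 2 partner chains against each other on log scales, 1 point a library. The untreated and IFNγ points of COL6A1 and COL6A2 are shifted against each other, with median ratios of 0.783 and 0.560. Their ranges, 0.640 to 0.931 and 0.384 to 0.708, overlap. The points of COL5A1 and COL5A2 follow no common line.

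Of 61 other genes of collagen synthesis and binding, 60 were tested. In WT clones after IFNγ edgeR called CIITA as higher and CREB3L1, an endoplasmic reticulum factor that activates collagen genes in osteoblasts, as lower, with a log2 fold change of -1.70 (edgeR adjusted p = 0.00968). With the clone as a block, 31 were lower and 12 higher at an adjusted p under 0.05 in WT clones, against 24.1% and 22.9% of all genes tested. In clones labelled KO 22 were lower and 10 higher as labelled, against 9.95% and 11.1% of all genes tested. With the exchange 30 were lower and 12 higher, against 18.8% and 17.9%. The lower ones in WT clones were 10 of 15 genes of hydroxylation and glycosylation, 5 of 10 of folding and secretion, 7 of 8 of propeptide cleavage, 2 of 5 of cross-linking, 4 of 8 receptors and 3 of 14 of transcription. P3H4, a partner of lysyl hydroxylase, fell by 0.85 (edgeR blocked adjusted p = 1.85e-07), the collagen chaperone gene SERPINH1 by 0.54 (edgeR blocked adjusted p = 3.73e-06) and BMP1, which removes the C-terminal propeptide, by 0.40 (edgeR blocked adjusted p = 8.50e-05). Of the cross-linking enzymes LOXL1 fell by 1.045 and LOXL2 by 0.64, while LOX had a log2 fold change of 0.19 (edgeR blocked adjusted p = 0.0989). The collagen receptor gene DDR2 rose from a mean of 61.6 to 202 CPM in WT clones (edgeR blocked adjusted p = 0.000362) and from 65.9 to 234 CPM in clones labelled KO, where edgeR called it (adjusted p = 0.00914), and LARP6, which binds type I collagen mRNA, rose by 0.52 in WT clones with the block. Between WT clones and clones labelled KO edgeR called 0 of the 60, against 0.0154% of all genes tested untreated and 0.0155% with IFNγ. An unadjusted p under 0.05 was reached by 7 untreated and 11 with IFNγ, against 4.79% and 4.35% of all genes tested. The 60 include CIITA, with means after IFNγ of 80.0 CPM in WT clones and 9.32 CPM in clones labelled KO. The 0 calls thus do not mean equal levels. For the difference of the responses 0 were called and only CIITA had an unadjusted p under 0.05 (edgeR adjusted p = 1).

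Reads of overlapping genes bear on 2 chain genes. In COL18A1 1174 of 6768 exon bases are shared with SLC19A1 on the opposite strand (mean 38.0 CPM), and in COL9A3 155 of 3144 with TCFL5 (mean 25.2 CPM). COL23A1, which passed no filter, shares 1051 of 4616 with LOC112267937 on the opposite strand (mean 0.0293 CPM). The strand setting of the counting is not given in the sources used here, so reads there may belong to either gene.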

How the data were processed

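Libraries of poly(A) RNA were stranded and sequenced, and the authors deposited 1 table of raw counts per gene with exon coordinates and lengths. Per the labels' processing notes, STAR 2.7.9a, featureCounts 2.4.0 and DESeq2 1.40.1 were used with GRCh38, and the strand setting of the counting is not given in the sources used here. The deposited counts were fitted in R 4.3.3 with edgeR 4.0.16 (TMM, filterByExpr, robust quasi-likelihood test, Benjamini-Hochberg adjustment over all genes tested) on the 10 libraries of a comparison, or on all 20 for the difference of the responses. A call needed an adjusted p under 0.01 and more than 2-fold. DESeq2 1.42.0 was an alternative. CPM and RPKM used TMM-scaled totals and the deposited lengths. Depth ran from 46652288 to 72952859 counts, and floors of 3 counts cover counting error only. The fits of the WT response and of the difference of the responses were tested on simulated data, with and without the clone block. For the unblocked difference no minimum recovery was required. The simulated spread between clones was smaller than that of every expressed chain. Their SDs of the log2 level over the untreated clones ran from 0.384 (COL11A2) to 2.92 (COL3A1). The other comparisons and the exchanged pairing were not simulated. Members and lists were chosen with earlier results of these data known.

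Expressed chains, the 3 smallest p values of each comparison, and COL1A1, COL1A2 and COL3A1 were named. Values per library were given for the chains of types I, IV, V and VI and the 3 expressed chains with the largest spread over untreated clones, and also for COL11A1 and COL15A1, chosen after their values were seen.

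Labels name the clone, so libraries of 1 clone share a number. Over 15113 genes their deviations from the group means correlated at 0.789 to 0.891 in WT clones and at 0.779, 0.847 and 0.698 in KO clones 1 to 3. KO clones 4 and 5 gave -1.17e-05 and 0.0694 as labelled, and 0.76 and 0.837 crosswise. Without the block the p values measure the spread between clones. With the clone as a block they measure the spread of the response from clone to clone, with 1 library a clone and condition. Correlations used 100000 permutations. Promoter windows came from a RefSeq table of GRCh38.p14. The result of 1 motif searched is not reported here.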

Additional observations from a re-analysis of the deposited data

Results flagged for a closer look

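Among 60 groups of 5 libraries examined, 6 held a library whose gap to its neighbour took an unusual share of the group's range, where chance gives about 3. The shares were taken on log2 levels, so they differ from those of the CPM values printed here. COL4A1 and COL4A2 were both lowest in untreated WT clone 4, at 222 CPM with the next clone at 449.8 (share 0.75) and at 603 CPM with the next at 1396 (share 0.787). COL5A1 was lowest in WT clone 3, at 200.3 CPM untreated with the next at 369 (share 0.818) and at 98.9 CPM after IFNγ with the next at 198 (share 0.787). COL12A1, a FACIT chain of tendon and ligament, was highest in untreated WT clone 4, at 753 CPM with the next at 451 (share 0.747). It was also highest in the IFNγ library labelled KO 2, at 634 CPM with the next at 269 (share 0.721).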

How the results depend on the processing

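In WT clones after IFNγ the count of chain genes called went from 0 to 3 with the replicate block, to 1 at an adjusted p under 0.05 with no fold cut-off and to 22 with both. Leaving out 1 clone alone gave 0 each time. Under the block and the lenient cut-off together, where all 5 clones gave 22, it gave 21, 20, 24, 20 and 24 without WT clones 1 to 5. In clones labelled KO it went from 0 to 2 with the block and exchanged libraries of clones 4 and 5. At an adjusted p under 0.05 the block gave 4 as labelled, 19 exchanged and 9 without both clones. Between untreated WT clones and clones labelled KO the count went from 0 to 1, COL11A1, with DESeq2 without shrinkage, with no filter on low counts, at an adjusted p under 0.05, and without WT replicate 5, so that leaving out 1 clone gave 0 to 1. With IFNγ, and for the difference of the responses, it stayed at 0 under all 18 and 17 alternatives. Without KO replicate 5 COL3A1 and COL5A2 turned from lower to 0.0387 and 0.0464 after IFNγ in clones labelled KO (ranges -1.06 to 0.0387 and -0.47 to 0.0464), and COL6A6 turned to 0.13 in the difference (range -1.87 to 0.13). The cause was not tested. Numbers of WT and KO clones are not shared clones, and a block on them changed no call of a chain gene. Over all genes the block moved the calls from 585 to 1414 in WT clones and from 379 to 721 in clones labelled KO, or 1208 exchanged, and DESeq2 moved those between untreated genotypes from 3 to 13. Depth limits statements on COL1A2 and the chains that passed no filter, where single counts decide the value.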
